A study of Mus musculus with 9 samples.

Results

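The liver sinusoid is lined by endothelial cells without a basement membrane, and the genes described here are 10 products of that lining and of the vascular surface that leukocytes meet: the scavenger and hyaluronan receptors Stab1, Stab2 and Lyve1, the C-type lectin Clec4g, the VEGF receptor Kdr, the junction protein Pecam1, the adhesion receptors Vcam1, Icam1 and Selp, and the ligand Wnt2. They were taken by gene symbol from the mRNA expression table, where they are 10 of 21870 genes. All 10 passed the filter on low values used for testing, at least 0.5 FPKM (fragments per kilobase of transcript scaled to the mapped fragments of the library, a level corrected for transcript length and for sequencing depth) in at least 3 libraries, as did 11557 genes in all. Selp passed it narrowly, through the 3 acetaminophen libraries and 1 library with dmPGE2.

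The study profiled total RNA of whole liver from wild-type C57 BL6 mice, 8 weeks old and about 20 g. Control mice received saline. The APAP group received 500 mg/kg acetaminophen (APAP) intraperitoneally, a dose that injures the liver, and the dmPGE2+APAP group received in addition 300 µg/kg dmPGE2, a dimethylated analog of prostaglandin E2, 1 h before the same dose of acetaminophen. Livers were taken 6 h after acetaminophen, with 3 libraries per group and 9 in all. No group received dmPGE2 alone, so an action of dmPGE2 in uninjured liver was not measured. The labels do not say that each library is a separate mouse, so the p-values measure only the spread between these samples, which may be technical.

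Sinusoidal endothelial cells clear hyaluronan, collagen fragments and modified proteins from blood through stabilin and lectin receptors, and they depend on VEGF signalling for their fenestrated state. In inflamed vessels P-selectin starts leukocyte rolling, and ICAM-1 and VCAM-1 then hold leukocytes through integrins. Endothelium of the central vein and its surroundings also supplies Wnt ligands that keep neighbouring hepatocytes in their pericentral state, where acetaminophen is turned into its toxic product.

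Summed FPKM ranged from 371958.2 to 393937.6 per library, and the number of reads behind these values is not known from the files used. Replicate libraries of a group correlated at r = 0.9662 to 0.9868 over all genes. The first principal component (51.1% of variance) separated controls from treated libraries, and the second (12.7%) set control replicate 3 at -32.63 apart from the other controls at 15.62 and 16.18. A second library stood apart for endothelial genes: the mean log2 level of 22 pan-endothelial genes was 1.28 in APAP replicate 3 and 1.54 to 1.59 in the other 8 libraries. With either library left out, Lyve1, Vcam1 and Kdr kept their calls against control, and the effects on Stab1 and Pecam1 are given with those genes. In bulk tissue, fewer cells of a type and less RNA per cell cannot be told apart.

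In APAP livers 3 of the 10 genes rose (Lyve1, Vcam1 and Stab1) and 1 fell (Kdr), while 6 did not pass the test. Over all genes tested, 20.9% were called at an adjusted p under 0.05 in this comparison (limma on log2 of the rescaled FPKM plus 0.1, Benjamini-Hochberg over all genes), 10.6% as higher and 10.3% as lower. In dmPGE2+APAP livers 2 rose against control (Lyve1 and Vcam1) and 1 fell (Kdr), beside 16.3% of all genes called, 8.51% as higher and 7.81% as lower. Both comparisons use the same 3 control libraries. The median log2 difference of the 10 genes was 0.21 in APAP and 0.25 in dmPGE2+APAP, beside -0.04 and -0.01 over all genes tested. Between dmPGE2+APAP and APAP no member was called, and neither was any other gene (0% of 11557). At an unadjusted p under 0.05 that comparison held 3 members (Lyve1, Vcam1 and Selp) and 1069 genes in all.

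**Figure D1:**
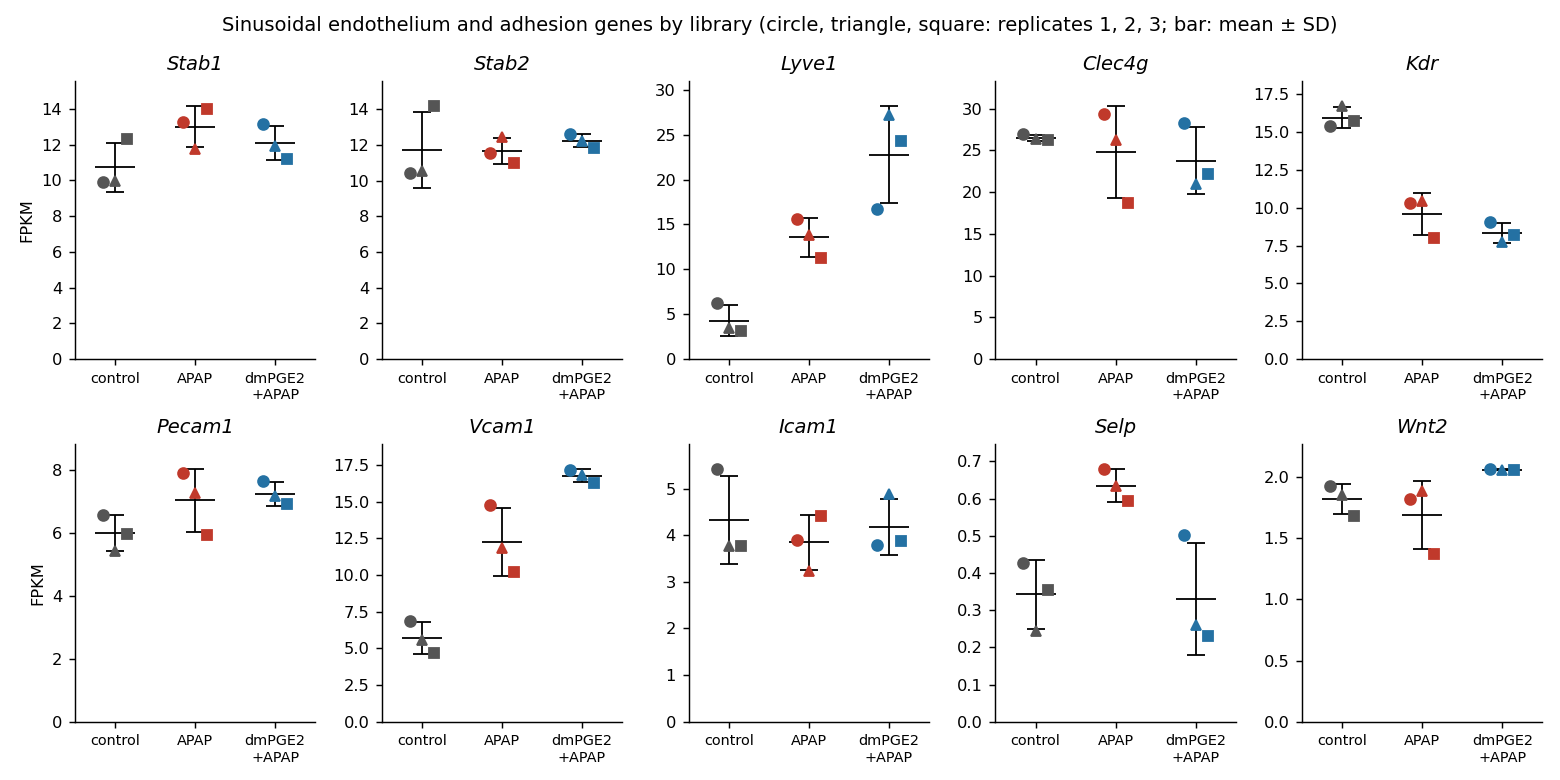
Deposited FPKM (y axis, linear from 0) of each of the 10 genes in the 3 control, 3 APAP and 3 dmPGE2+APAP libraries; circle, triangle and square are replicates 1, 2 and 3, and bars show the group mean ± SD. Lyve1 and Vcam1 lie higher in all treated libraries than in all controls, Kdr lies lower, and Icam1, Clec4g and Stab2 overlap between the groups.

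Lyve1 (ENSMUSG00000030787, minus strand of chr7:110850607-110863239, GRCm38), which encodes a hyaluronan receptor of sinusoidal and lymphatic endothelium, differed most from control among the 10. Its level was 6.26, 3.47 and 3.11 FPKM in control replicates 1 to 3, 15.6, 13.8 and 11.3 FPKM in APAP, and 16.8, 27.2 and 24.3 FPKM in dmPGE2+APAP. Every APAP library was above every control, as for 12.9% of all genes tested, and every dmPGE2+APAP library was above every APAP library. The mean was 4.28 ± 1.72 FPKM in control (SD, n = 3), 13.6 ± 2.16 in APAP and 22.8 ± 5.40 in dmPGE2+APAP. The APAP level was 3.48-fold that of control (log2 difference 1.80, SE 0.282, limma adjusted p = 0.00300), which placed Lyve1 at rank 260 of 11557 genes by the size of its difference. The dmPGE2+APAP level was 5.86-fold that of control (log2 2.55, SE 0.282, limma adjusted p = 0.000698, rank 73). The log2 difference between the treated groups was 0.75, with a 95% interval of 0.118 to 1.39, and it did not pass adjustment (limma unadjusted p = 0.025, adjusted p = 0.475). Non-overlapping groups of this direction were also found for 7.11% of all genes tested in that comparison.

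Vcam1 (ENSMUSG00000027962, minus strand of chr3:116109949-116129688), the endothelial ligand of the leukocyte integrin α4β1, had the same order of groups as Lyve1. It was at 6.89, 5.60 and 4.68 FPKM in control, 14.8, 11.8 and 10.2 FPKM in APAP, and 17.2, 16.8 and 16.3 FPKM in dmPGE2+APAP. No group overlapped another, and the dmPGE2+APAP libraries lay closest together. Of all genes tested, 12.9% were higher without overlap in APAP than in control. The share was 11.3% for dmPGE2+APAP against control and 7.11% for dmPGE2+APAP against APAP. Against control the level was 2.28-fold in APAP (log2 1.19, SE 0.181, limma adjusted p = 0.00266) and 3.21-fold in dmPGE2+APAP (log2 1.68, limma adjusted p = 0.000645). The log2 difference between dmPGE2+APAP and APAP was 0.49, with a 95% interval of 0.0848 to 0.904, and did not pass adjustment (limma unadjusted p = 0.0232, adjusted p = 0.466).

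Kdr (ENSMUSG00000062960, minus strand of chr5:75932827-75978458), the main signalling receptor for VEGF-A, was the member that fell. Its level was 15.4, 16.7 and 15.8 FPKM in control, 10.3, 10.5 and 7.97 FPKM in APAP, and 9.08, 7.77 and 8.23 FPKM in dmPGE2+APAP. All treated libraries were below all controls, as was so for 30.6% of all genes tested in APAP and 31.1% in dmPGE2+APAP, and the treated groups overlapped. The APAP level was 0.642 of control (log2 difference -0.64, SE 0.137, limma adjusted p = 0.0117), and the dmPGE2+APAP level was 0.576 of control (log2 -0.80, limma adjusted p = 0.00569). Between the treated groups the log2 difference was -0.16, with a 95% interval of -0.467 to 0.152 (limma adjusted p = 0.751).

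Lyve1, Vcam1 and Kdr were called against control, in APAP and in dmPGE2+APAP, under all 18 alternative settings that were run. Across those settings the APAP log2 difference ranged from 1.58 to 2.12 for Lyve1, from 1.02 to 1.34 for Vcam1 and from -0.74 to -0.49 for Kdr. The corresponding dmPGE2+APAP ranges were 2.30 to 2.87, 1.52 to 1.84 and -0.93 to -0.73.

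**Figure D2:**
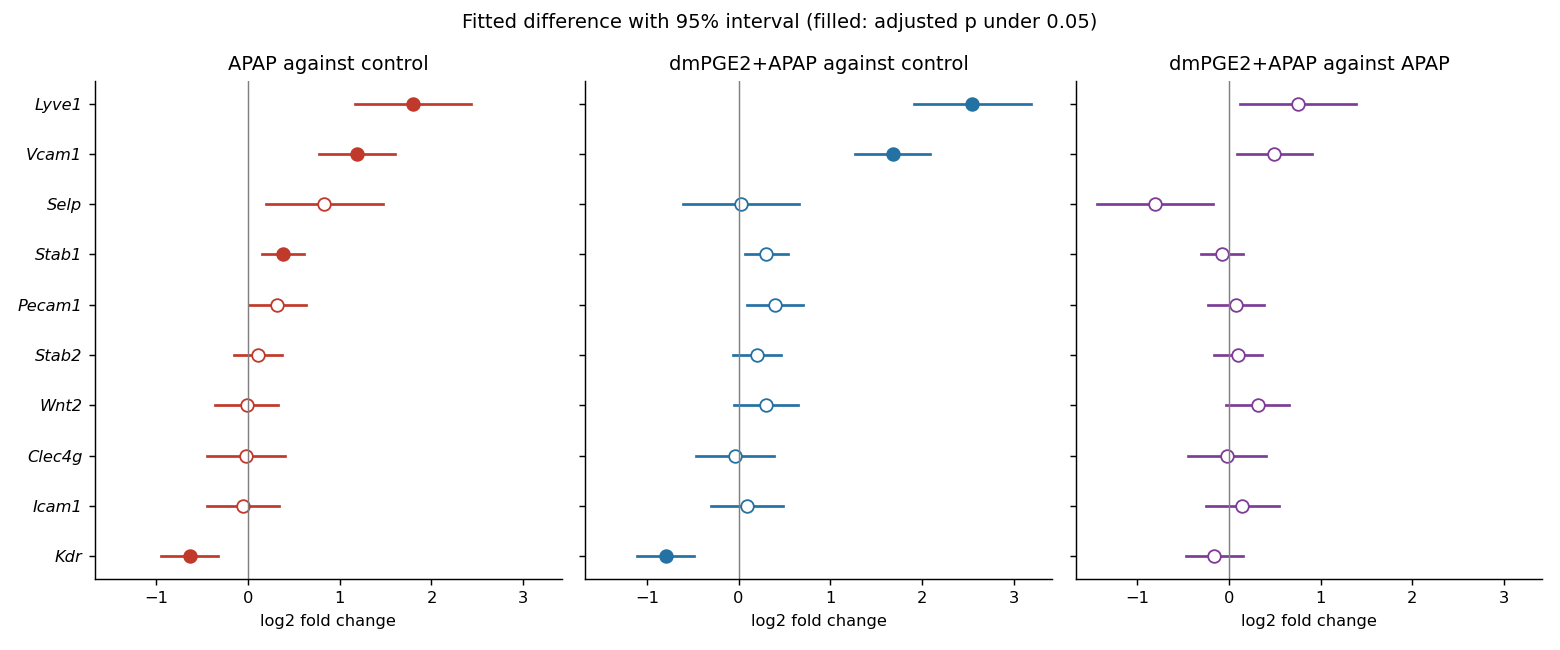
Log2 difference of each of the 10 genes (x axis) in APAP against control, dmPGE2+APAP against control and dmPGE2+APAP against APAP, with 95% intervals from limma; filled points passed an adjusted p of 0.05. The intervals of Lyve1, Vcam1 and Kdr against control lie clear of 0, and no difference between the treated groups passed.

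The stabilins are large scavenger receptors of the sinusoidal lining. Stab1 (ENSMUSG00000042286, minus strand of chr14:31139013-31168641) was at 9.90, 9.98 and 12.3 FPKM in control, 13.3, 11.7 and 14.0 FPKM in APAP, and 13.1, 11.9 and 11.2 FPKM in dmPGE2+APAP. The groups overlapped through control replicate 3, the highest control. The APAP level was 1.30-fold that of control (log2 0.38, SE 0.102, limma adjusted p = 0.0299), and the dmPGE2+APAP level was 1.24-fold (log2 0.30, adjusted p = 0.0753, limma). The APAP call was made under 11 of 18 alternatives. It ended when the deposited values were not rescaled (adjusted p = 0.108, limma) and when the fit held only the compared groups (0.0553). Leaving out 1 library ended it for control replicates 1 (0.0876) and 2 (0.0908) and for APAP replicates 1 (0.0851) and 3 (0.0892). Without control replicate 3 the dmPGE2+APAP difference was called as well (adjusted p = 0.0433, limma).

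Stab2 (ENSMUSG00000035459, minus strand of chr10:86841198-87008025), a clearance receptor for hyaluronan, was at 10.4, 10.6 and 14.2 FPKM in control, 11.6, 12.4 and 10.97 FPKM in APAP, and 12.6, 12.2 and 11.9 FPKM in dmPGE2+APAP. All groups overlapped, with the lowest and the highest value both among controls. The log2 difference from control was 0.10 in APAP, with a 95% interval of -0.156 to 0.365 (limma adjusted p = 0.553), and 0.21 in dmPGE2+APAP (adjusted p = 0.262).

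Clec4g (ENSMUSG00000074491, minus strand of chr8:3707064-3720651), a lectin restricted in liver largely to sinusoidal endothelium, had the highest mean of the 10 genes in each group, although Lyve1 was above it in dmPGE2+APAP replicates 2 and 3. Its level was 27.0, 26.4 and 26.3 FPKM in control, 29.4, 26.3 and 18.8 FPKM in APAP, and 28.3, 20.9 and 22.1 FPKM in dmPGE2+APAP. The controls lay close together and the treated libraries spread around and below them, with APAP replicate 3 lowest. The log2 difference from control was -0.02 in APAP, with a 95% interval of -0.443 to 0.403 (limma adjusted p = 0.951), and -0.04 in dmPGE2+APAP (adjusted p = 0.908). The sign of the APAP difference changed to 0.08 when libraries were centred on pan-endothelial genes.

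Pecam1 (ENSMUSG00000020717, minus strand of chr11:106654217-106750628), the junction protein CD31 of all endothelium, was at 6.58, 5.43 and 5.98 FPKM in control, 7.89, 7.27 and 5.94 FPKM in APAP, and 7.66, 7.19 and 6.91 FPKM in dmPGE2+APAP. The dmPGE2+APAP libraries were all above the controls (as for 11.3% of all genes tested), and APAP replicate 3 lay among the controls. The log2 difference was 0.32 in APAP (limma adjusted p = 0.123) and 0.40 in dmPGE2+APAP (adjusted p = 0.076). The APAP difference was called without APAP replicate 3 (log2 0.46, limma adjusted p = 0.0377) and after centring on pan-endothelial genes (log2 0.42, adjusted p = 0.0296).

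Among the adhesion receptors, Icam1 (ENSMUSG00000037405, plus strand of chr9:21015985-21028817), the ligand of β2 integrins, did not pass in any comparison. It was at 5.42, 3.77 and 3.78 FPKM in control, 3.91, 3.23 and 4.41 FPKM in APAP, and 3.80, 4.88 and 3.87 FPKM in dmPGE2+APAP. All groups overlapped, and control replicate 1 was the highest library. The log2 difference from control was -0.06 in APAP, with a 95% interval of -0.450 to 0.339 (limma adjusted p = 0.85), so the interval lies below the difference measured for Vcam1 in the same livers. In dmPGE2+APAP it was 0.09 (adjusted p = 0.762), and without rescaling it was -0.04.

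Selp (ENSMUSG00000026580, plus strand of chr1:164115264-164150026), P-selectin of endothelial and platelet granules, had the lowest level of the 10 genes. It was at 0.427, 0.245 and 0.355 FPKM in control, 0.679, 0.633 and 0.593 FPKM in APAP, and 0.503, 0.259 and 0.230 FPKM in dmPGE2+APAP. All APAP libraries were above all others, and the controls overlapped dmPGE2+APAP. Of all genes tested, 12.9% were higher without overlap in APAP than in control. The APAP log2 difference from control was 0.83, with a 95% interval of 0.199 to 1.47, and did not pass adjustment (limma unadjusted p = 0.0156, adjusted p = 0.065). It was called in a fit without an abundance trend (adjusted p = 0.0427, limma). The dmPGE2+APAP level was lower than the APAP level by a log2 difference of -0.80, with a 95% interval of -1.44 to -0.169 (limma unadjusted p = 0.0186, adjusted p = 0.443), and 8.93% of all genes tested were likewise lower without overlap. With 3 libraries in each group an exact permutation test cannot give a p below 0.1.

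Selp is also made by megakaryocytes and stored in platelets, and platelet markers were read beside it. The summed level of 11 platelet markers was 10.3, 8.32 and 5.81 FPKM in control, 25.7, 23.8 and 26.5 FPKM in APAP, and 18.2, 11.8 and 12.6 FPKM in dmPGE2+APAP. Across groups the sums and Selp were both highest in APAP. Within groups the orders differed in part. Replicate 1 was highest for both in control and in dmPGE2+APAP. APAP replicate 3 had the highest platelet sum and the lowest Selp of its group, and control replicate 3 had the lowest sum but not the lowest Selp. Of the 7 platelet markers that passed the filter, 6 rose in APAP, 1 of the 7 having passed only through 1 group, and none was at 0 throughout a group. Pf4, a platelet chemokine, averaged 0.529 ± 0.0882 FPKM in control, 3.55 ± 0.443 in APAP and 1.26 ± 0.433 in dmPGE2+APAP (SD, n = 3). The part of platelet RNA in the Selp values was not tested.

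The RefSeq promoter table (GRCm38.p6) gave a window for 7 of the 10 genes. It is shown for Kdr, which fell, and for the adhesion receptors Selp and Icam1, because adhesion receptor genes are textbook targets of NF-kB and AP-1. Each sequence below holds the 250 bases before the RefSeq start, 5′ to 3′ on the gene's strand, with matches to the Rel motif (GGG, any 5 bases, CC) or the AP-1 motif TGANTCA, on either strand, in capitals.
Kdr, chr5:75978456-75978705, minus strand: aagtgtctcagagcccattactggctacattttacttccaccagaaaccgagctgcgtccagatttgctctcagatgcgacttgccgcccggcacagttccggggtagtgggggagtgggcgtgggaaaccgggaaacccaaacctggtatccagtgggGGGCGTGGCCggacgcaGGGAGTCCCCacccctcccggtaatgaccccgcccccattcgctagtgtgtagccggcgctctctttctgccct
Selp, chr1:164115014-164115263, plus strand: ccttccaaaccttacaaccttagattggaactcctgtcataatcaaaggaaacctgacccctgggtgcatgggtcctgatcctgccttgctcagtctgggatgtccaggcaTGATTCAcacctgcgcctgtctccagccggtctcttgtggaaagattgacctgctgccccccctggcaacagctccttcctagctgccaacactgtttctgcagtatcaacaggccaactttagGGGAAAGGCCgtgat
Icam1, chr9:21015690-21015939, plus strand: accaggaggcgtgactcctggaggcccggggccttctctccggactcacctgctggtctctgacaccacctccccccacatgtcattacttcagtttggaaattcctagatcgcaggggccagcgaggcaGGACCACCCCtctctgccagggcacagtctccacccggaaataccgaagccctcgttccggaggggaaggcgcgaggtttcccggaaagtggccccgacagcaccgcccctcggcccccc

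Kdr held Rel matches GGGCGTGGCC and GGGAGTCCCC, whose first bases lie 91 and 74 bases before the start. Selp held the Rel match GGGAAAGGCC at 15 bases and the AP-1 match TGATTCA at 139 bases before the start. Icam1 held 1 Rel match, read on the opposite strand, which appears as GGACCACCCC at 120 bases. Stretches that miss the motif by a letter, such as tggaaattcc in the Icam1 window, stay in lower case. The capitals are therefore not a full list of possible Rel sites. Stab2 had overlapping Rel matches on both strands, and the Stab1, Clec4g and Wnt2 windows held neither motif. The Rel motif occurs in 45.8% of all 32851 promoter windows of this length and the AP-1 motif in 6.75%, so these matches are a description of letters in the window.

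Wnt2 (ENSMUSG00000010797, minus strand of chr6:17988940-18030585), a Wnt ligand made by liver endothelium, was at 1.92, 1.85 and 1.69 FPKM in control and 1.82, 1.89 and 1.37 FPKM in APAP. In dmPGE2+APAP it was at 2.06 FPKM in each of the 3 libraries. The dmPGE2+APAP libraries were above all others, and control and APAP overlapped. Of all genes tested, 11.3% were higher without overlap in dmPGE2+APAP than in control, and 7.11% than in APAP. The log2 difference from control was -0.02 in APAP, with a 95% interval of -0.362 to 0.331 (limma adjusted p = 0.954), and 0.30 in dmPGE2+APAP (adjusted p = 0.223). The APAP difference was 0.08 after centring on pan-endothelial genes and 0.00486 with a median-ratio scale. Between the treated groups it was 0.31 (limma unadjusted p = 0.072, adjusted p = 0.568).

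In control liver the order of mean levels was Clec4g (26.5 FPKM), Kdr (16.0), Stab2 (11.7), Stab1 (10.7), Pecam1 (6.00), Vcam1 (5.72), Icam1 (4.32), Lyve1 (4.28), Wnt2 (1.82) and Selp (0.342). The ranges over libraries overlapped between Stab2 and Stab1. The ranges of Pecam1, Vcam1 and Lyve1 overlapped one another, and that of Icam1 overlapped those of Vcam1 and Lyve1. In dmPGE2+APAP livers Lyve1, at 22.8 ± 5.40 FPKM, and Clec4g, at 23.8 ± 3.96 FPKM, had overlapping ranges, and Kdr, at 8.36 ± 0.665 FPKM, was below Vcam1 at 16.8 ± 0.452 FPKM (SD, n = 3).

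To set these genes against the endothelium as a whole, each was also expressed as a log2 difference from the mean of the pan-endothelial genes in the same library. Lyve1 was 0.42 ± 0.549 above that mean in control, 2.32 ± 0.124 in APAP and 2.99 ± 0.348 in dmPGE2+APAP (log2, SD, n = 3). Vcam1 was 0.88 ± 0.304, 2.17 ± 0.180 and 2.58 ± 0.0422 above it. Kdr was 2.36 ± 0.0865, 1.83 ± 0.0997 and 1.58 ± 0.138 above it. On this scale, too, treated and control libraries of these 3 genes stood apart, while Clec4g was 3.09, 3.18 and 3.07 above the pan-endothelial mean.

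Other sinusoidal and pan-endothelial genes moved both ways. Of 21 other sinusoidal genes tested, 2 rose (Plvap, Thbd) and 4 fell (Gpr182, Maf, Fam167b, Kit) in APAP, with a median log2 difference of -0.11. Thbd, the anticoagulant receptor thrombomodulin, rose from 1.43 ± 0.220 FPKM in control to 10.3 ± 1.75 in APAP (7.30-fold, limma adjusted p = 9.74e-06) and 13.0 ± 0.478 in dmPGE2+APAP (9.38-fold). Gpr182, an endothelial chemokine receptor, was at 0.528 of control in APAP (limma adjusted p = 0.00399). Kit was no longer called when any 1 of control replicates 1 and 2 and APAP replicates 1 and 3 was left out. Of 22 pan-endothelial genes tested, 4 rose and 3 fell in APAP (median 0.03), and 6 rose and 3 fell in dmPGE2+APAP (median 0.05).

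The pan-endothelial genes that fell were Sox18, Clec14a and Cldn5. Sox18, an endothelial transcription factor, was at 1.99 ± 0.204 FPKM in control and 0.166 ± 0.107 FPKM in APAP (SD, n = 3, limma adjusted p = 0.00059). It passed the filter through the controls alone and so had to differ. Clec14a, an endothelial lectin, was at 4.13 ± 0.632 FPKM in control, 1.46 ± 0.0891 in APAP and 1.51 ± 0.0297 in dmPGE2+APAP (0.397 of control in APAP, limma adjusted p = 0.000219). Esam, an endothelial junction protein, rose from 4.43 ± 0.374 to 8.44 ± 0.629 FPKM in APAP (2.02-fold, limma adjusted p = 0.000544). The cadherin of endothelial junctions, Cdh5, was at 8.20 ± 0.756 FPKM in control, 8.39 ± 1.45 in APAP (adjusted p = 0.537, limma) and 11.6 ± 0.734 in dmPGE2+APAP (1.55-fold, adjusted p = 0.0134), a call lost without dmPGE2+APAP replicate 2 (adjusted p = 0.052).

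**Figure D3:**
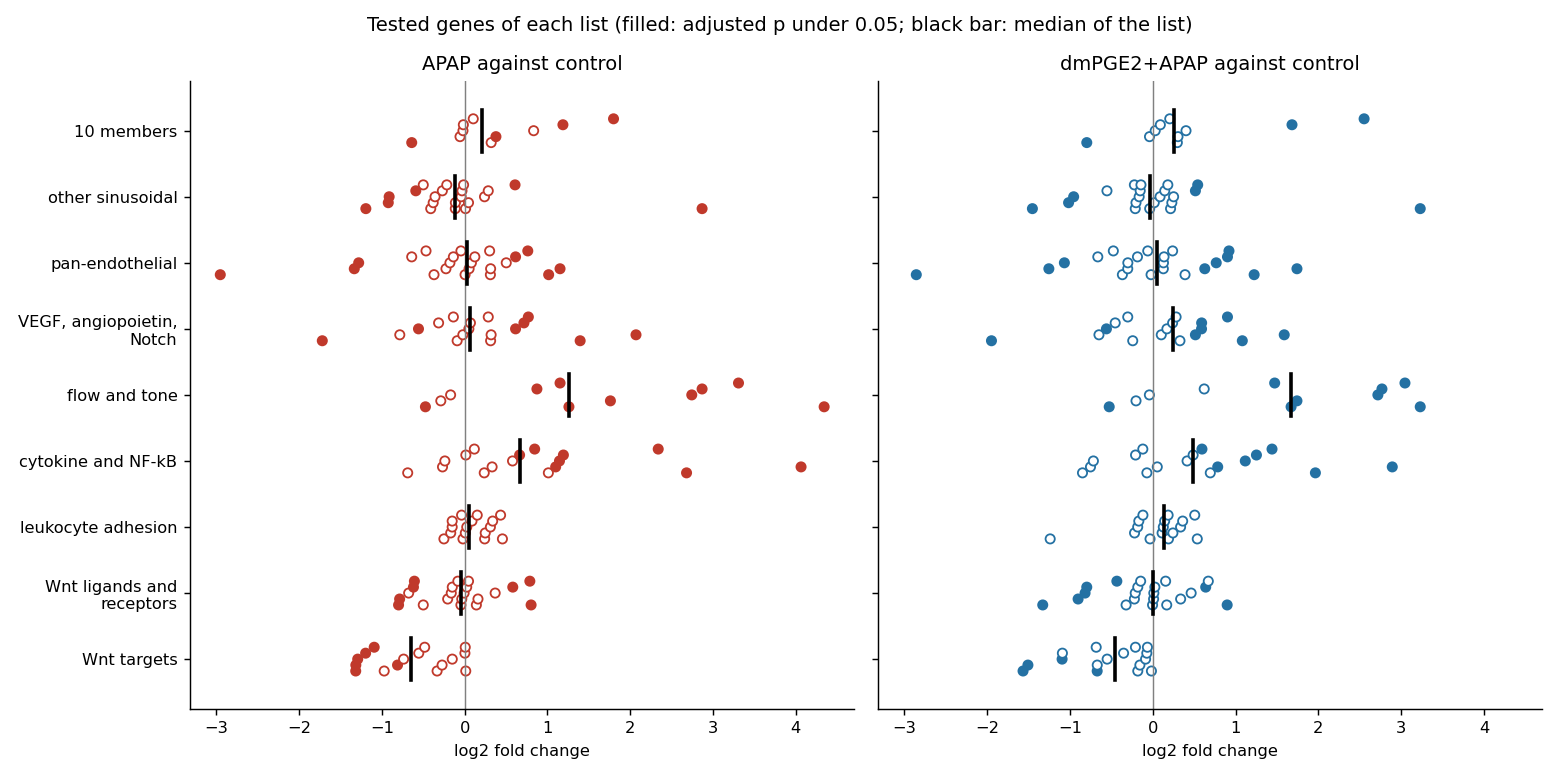
Log2 fold change against control (x axis) of each tested gene in 9 gene lists (rows), for APAP and for dmPGE2+APAP; each circle is a gene, filled where its limma adjusted p was under 0.05, and the black bar is the median of the list. Flow-response and cytokine genes were called mainly as higher, hepatocyte Wnt targets as lower, and the sinusoidal and pan-endothelial lists in both directions.

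The genes around Kdr were split. Of 17 genes of VEGF, angiopoietin and Notch signalling tested, 5 rose and 2 fell in APAP, and 6 rose and 2 fell in dmPGE2+APAP. Flt1, the VEGF receptor that binds VEGF-A tightly and signals weakly, was at 3.37 ± 0.328 FPKM in control, 4.86 ± 0.573 in APAP (1.53-fold, limma adjusted p = 0.0118) and 5.82 ± 0.491 in dmPGE2+APAP (1.87-fold, adjusted p = 0.00268), the opposite direction to Kdr. Dll4, a Notch ligand of endothelium, was at 1.56 ± 0.267 FPKM in control, 0.371 ± 0.0366 in APAP and 0.296 ± 0.0249 in dmPGE2+APAP (limma adjusted p = 0.000349 in APAP), and it too passed the filter through the controls alone. The ligand Vegfa, chosen after its values were seen, averaged 21.0 FPKM in control and 24.6 FPKM in APAP (adjusted p = 0.204, limma).

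Of 11 genes of flow response and vascular tone tested, 8 rose and 1 fell in APAP, and 7 rose and 1 fell in dmPGE2+APAP. The median log2 difference was 1.26 and 1.67. Both counts of rises include Plat, at no more than 0.226 FPKM in control, which was tested only because of its treated libraries. Klf4, a flow-responsive transcription factor, was 6.69-fold that of control in APAP (limma adjusted p = 4.84e-05). Nos3, the endothelial nitric oxide synthase, averaged 0.805 ± 0.0604 FPKM in control, 1.80 ± 0.254 in APAP and 2.71 ± 0.513 in dmPGE2+APAP (2.22-fold and 3.34-fold). Several genes of this list are also expressed outside endothelium.

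Cytokine-response and NF-kB genes were called in 1 direction only in the same livers. Of 17 tested, 8 rose and 0 fell in APAP (median 0.66), and 7 rose and 0 fell in dmPGE2+APAP (median 0.49). Both counts of rises include Cxcl2, at no more than 0.126 FPKM in control, which was tested only because of its treated libraries. Nfkbiz, an inducible NF-kB cofactor, was 6.41-fold that of control in APAP, and Il1r1, the interleukin-1 receptor, was 2.29-fold. Of 16 tested genes listed as leukocyte adhesion ligands and partners, 0 were called by limma in APAP or in dmPGE2+APAP (0 and 2 at an unadjusted p under 0.05). That list also holds genes that are not confined to leukocytes. Itga4, the α4 integrin chain that binds VCAM-1, averaged 0.718 FPKM in control and 0.984 FPKM in APAP (adjusted p = 0.237, limma). E-selectin, Sele, did not pass the filter: it was at 0, 0.0302 and 0.0312 FPKM in control, 0.300, 0.164 and 0.519 FPKM in APAP, and 0.269, 0.0196 and 0.0202 FPKM in dmPGE2+APAP.

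Around Wnt2, 3 of 21 tested Wnt ligands, R-spondins, receptors and angiocrine factors rose and 4 fell in APAP. These counts dropped to 4 calls in all without control replicate 1 or without APAP replicate 1. The rises include Wnt4, at no more than 0.482 FPKM in control, which was tested only because of its treated libraries. Wnt9b, the other main Wnt of central-vein endothelium, was below the filter at 0.152 to 0.472 FPKM. Rspo3, which amplifies Wnt signals, was at 1.73 ± 0.226 FPKM in control, 1.13 ± 0.278 in APAP (limma adjusted p = 0.0651) and 1.34 ± 0.153 in dmPGE2+APAP. The APAP difference of Rspo3 was called without rescaling (adjusted p = 0.045, limma) and without APAP replicate 3 (0.0333). Fzd4, a Wnt and norrin receptor, fell from 8.97 ± 0.176 to 4.82 ± 0.195 FPKM in APAP (0.580 of control, limma adjusted p = 0.00038), and Hgf, the hepatocyte growth factor, rose 1.73-fold (adjusted p = 0.00116).

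Of 16 hepatocyte Wnt targets, 0 rose and 6 fell in APAP, and 0 rose and 4 fell in dmPGE2+APAP. Both counts of falls include Sp5, which passed the filter through the controls alone and so had to differ. Glul, glutamine synthetase of pericentral hepatocytes, was at 415 ± 53.5 FPKM in control, 157 ± 36.0 in APAP (0.402 of control, limma adjusted p = 0.00268) and 259 ± 32.1 in dmPGE2+APAP (0.683, adjusted p = 0.0971). Without rescaling, the dmPGE2+APAP difference of Glul was called (adjusted p = 0.027, limma), and so it was with quantile normalization (0.0247). Wnt2 itself did not pass the test in the APAP livers in which Fzd4 and Glul fell. The part of Wnt2 in those falls was not tested. Beside the 6 targets that fell, Axin2, Nkd1 and Notum of the same list did not pass in APAP. Their log2 differences from control were -0.33, 0.00367 and 0.0138 (limma adjusted p = 0.588, 0.988 and 0.934). The Wnt-target count in dmPGE2+APAP was 2 without dmPGE2+APAP replicate 3.

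Of 15 scavenger and clearance receptors tested beside the stabilins, 2 rose in APAP (Scarf2, Colec12) and 0 fell, with a median of -0.01. Among 6 tested genes of hyaluronan synthesis, binding and breakdown, Tnfaip6, a hyaluronan-binding protein induced in inflammation, rose in APAP and Hyal1, a lysosomal hyaluronidase, fell. Tnfaip6 averaged 0.0411 FPKM in control and 1.36 FPKM in APAP. No control library reached the filter of 0.5 FPKM, so Tnfaip6 was tested only because of its treated libraries, and its call is not independent of the filter. Hyal1 was at 14.1 ± 1.24 FPKM in control and 9.48 ± 0.322 in APAP (0.725 of control, limma adjusted p = 0.0136). Leaving out control replicate 2 (adjusted p = 0.0511, limma) or centring on pan-endothelial genes (0.0719) ended the Hyal1 call.

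Markers of other cells that carry some of these genes were read in the same libraries. Lyve1 and Stab1 are also found on some macrophages, and Vcam1 on Kupffer cells. The sum of 13 Kupffer cell markers was 191, 167 and 173 FPKM in control, 186, 159 and 107 FPKM in APAP, and 202, 193 and 188 FPKM in dmPGE2+APAP; 1 of the 13 rose in APAP (Cd68) and 1 in dmPGE2+APAP (Cd163), and none was at 0 throughout a group. APAP replicate 3, the lowest for Kupffer markers, was also the lowest APAP library for all 10 genes except Stab1 and Icam1. 

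Lymphatic endothelium also carries Lyve1, and its 6 listed markers moved in different directions. They summed to 54.9 to 74.5 FPKM in control, 47.7 to 65.4 FPKM in APAP and 47.6 to 53.3 FPKM in dmPGE2+APAP, mostly from Prox1 and Reln, which hepatocytes and stellate cells also express. No marker was at 0 throughout a group, and 4 passed the filter. In APAP 1 of the 4 rose, Mmrn1, from 0.463 ± 0.116 to 0.834 ± 0.101 FPKM (1.77-fold, limma adjusted p = 0.0306), and 1 fell, Prox1, from 36.0 to 21.2 FPKM, a call that centring on pan-endothelial genes ended. In dmPGE2+APAP 1 rose, Flt4, from 5.48 to 7.20 FPKM (1.43-fold, limma adjusted p = 0.0256), and Prox1 fell. Flt4 is also in the list of other sinusoidal genes. Mmrn1 averaged 0.391 ± 0.0961 FPKM in dmPGE2+APAP, so its mean, like the platelet marker sums, was highest in APAP. Leaving out any 1 library of the compared groups other than control replicate 1 ended the Mmrn1 call, and the Flt4 call ended without control replicate 2 or 3 or dmPGE2+APAP replicate 1 or 3. Reln averaged 20.1 FPKM in control, 26.9 in APAP and 25.9 in dmPGE2+APAP and did not pass. Pdpn, which did not pass the filter, averaged 0.122, 0.0691 and 0.131 FPKM. Ccl21a, also below it, has near-identical copies in the table and is given no value. The part of lymphatic RNA in the Lyve1 values was not tested. Among 7 tested genes of vessel endothelium outside the sinusoids, Vwf, the von Willebrand factor, rose in APAP from 2.27 ± 0.404 to 3.47 ± 0.144 FPKM (1.63-fold, limma adjusted p = 0.00623). Vwf averaged 2.74 ± 0.0843 FPKM in dmPGE2+APAP (adjusted p = 0.0683 against control, limma), so its mean too was highest in APAP. Gja4 rose in dmPGE2+APAP. Which cells the Mmrn1 and Vwf RNA came from was not tested.

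The sum of 13 neutrophil markers was 2.78 to 7.14 FPKM in control, 43.2, 10.7 and 11.3 FPKM in APAP replicates 1 to 3, and 5.63 to 11.9 FPKM in dmPGE2+APAP. APAP replicate 1 alone lay above the dmPGE2+APAP range. Of the markers, 3, 3 and 1 were at 0 throughout the group. Stellate cell markers, 14 in all, summed to 140 to 199 FPKM, 191 to 218 FPKM and 199 to 225 FPKM. Lymphocyte markers, 10 in all, summed to 2.64 to 3.32 FPKM in control and 1.01 to 1.54 FPKM in APAP. The 9 hepatocyte markers summed to 34969 to 37567 FPKM in control and 40957 to 48234 FPKM in APAP. The part of cell composition in the members' values was not tested.

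**Figure D4:**
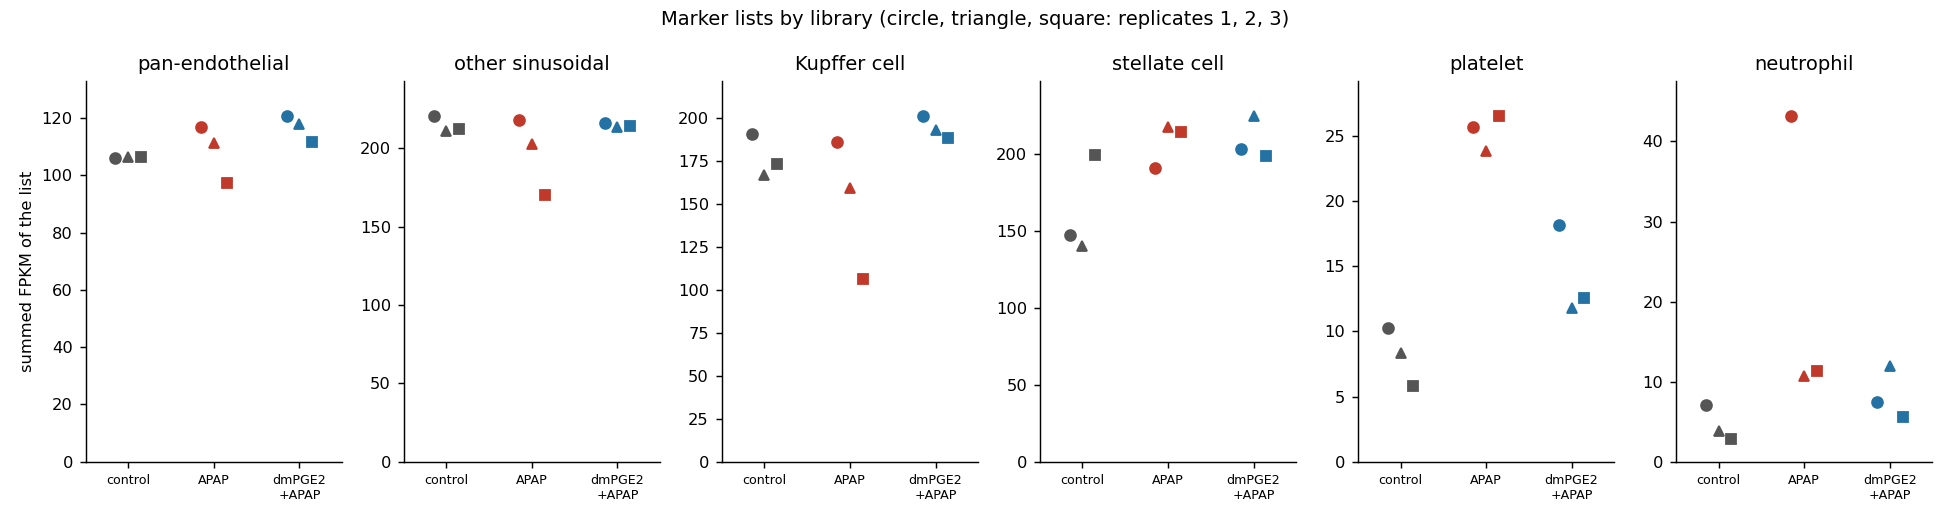
Summed deposited FPKM (y axis, linear from 0) of marker lists in each of the 9 libraries, by group; circle, triangle and square are replicates 1, 2 and 3. Platelet markers are highest in APAP, and APAP replicate 3 is lowest for Kupffer cell markers, at 107 FPKM, and for other sinusoidal genes, at 170 FPKM.

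By Pearson correlation of log2 levels over the 9 libraries, the genes most like Lyve1 were Timp3 (r = 0.990), Rtf1 (0.989) and Rlf (0.982). Those most like Vcam1 were Fmnl2 (0.988), Rps9 (0.984) and Lyve1 itself (0.978), and those most like Kdr included Sptlc1 (0.989) and Upf1 (0.978). These are descriptions over libraries that share the same group differences.

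The lncRNA table, quantified separately, held 26 transcripts of 9 of the genes (Wnt2 had none), of which the annotation types 22 as retained intron and 4 as processed transcript. Of the 19 tested, 0 were called in APAP against control (limma, 5 at an unadjusted p under 0.05), beside 3.61% of 22984 transcripts. In dmPGE2+APAP against control 1 was called, beside 1.81% of all, and between the treated groups 0 were (1 at an unadjusted p under 0.05). That transcript was Stab1-213, at 0.00186, 0.0302 and 0.00546 FPKM in control, 0.0878, 0.111 and 0.377 FPKM in APAP and 0.454, 0.251 and 0.366 FPKM in dmPGE2+APAP (log2 difference 2.04, limma adjusted p = 0.0305). No control library reached the 0.1 FPKM filter, so Stab1-213 was tested only because of its treated libraries. Its call is therefore not independent of the filter.

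The Lyve1 retained-intron transcript, Lyve1-202, stayed between 0.126 and 0.178 FPKM in all 9 libraries (adjusted p = 0.907 in APAP, limma), beside the rise of the gene. Vcam1-204 was at 0.0823, 0.0893 and 0.187 FPKM in control and 0.288, 0.240 and 0.322 FPKM in APAP, and did not pass (adjusted p = 0.15, limma). Kdr-203 was at 0.195, 0.211 and 0.198 FPKM in control and 0.0525, 0.0231 and 0.117 FPKM in APAP, and did not pass (adjusted p = 0.158, limma). Summed, such transcripts came to at most 41.7% of the gene's FPKM for Stab1, 51.8% for Selp, 14% for Stab2 and 8.65% for each of the other genes. Exons of Stab1 overlap the opposite-strand gene Nt5dc2, those of Selp overlap Gm16548 and Gm16587, and those of Stab2, Clec4g, Vcam1 and Icam1 overlap antisense genes. The library protocol marks strand, and whether quantification used it is not given in the sources used here, so those genes are uncertain to that extent; Lyve1, Kdr, Pecam1 and Wnt2 have no such exon overlap.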

How the data were processed

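RNA-seq of rRNA-depleted, strand-marked libraries from 9 liver samples was analysed (3 groups of 3). The authors' deposited FPKM values, aligned with HISAT2 to GRCm38/mm10 per the submitters' processing notes (versions and quantifier not given in the sources used here), were the input. Columns headed BC were taken as control, since the remaining 6 carry the names of the treated groups. The 2 deposited tables named as read counts were treated as scores. In the lncRNA table the score matched FPKM times genomic span times a library constant within 1% for 100% of values of at least 1000. Of the mRNA scores, 0.910% to 1.21% of such values matched, and what they hold was not settled. No count test was run and depth is unknown, so no counting interval is given.

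FPKM was divided by an unweighted trimmed-mean library scale (30% of ratios and 5% of abundances trimmed), 0.1 was added, and genes reaching 0.5 FPKM in 3 or more libraries (0.1 FPKM for lncRNA transcripts) were tested on the log2 scale with limma 3.58.1 in R 4.3.3, abundance trend, all 9 libraries, 6 residual degrees of freedom. Tests were two-sided with Benjamini-Hochberg adjustment at 0.05. Fold changes are on this log2(FPKM + 0.1) scale, which understates low genes. Rescaling moved the median log2 difference of all genes by 0.101 in APAP and 0.131 in dmPGE2+APAP. The fit was tested on simulated data.

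The members and gene lists were chosen with earlier results of these data known. The text names genes from all members, up to 4 of the most changed called genes per list and comparison, and Wnt9b, Rspo3, Cdh5 and Sele. Genes named only in a count, Itga4, Vegfa, Reln, Pdpn, Axin2, Nkd1 and Notum were added after their values were seen. Some genes that the rule picks are not reported here. Replicates differed beyond identity (0 to 5 identical values per pair). The alternatives tried were other scales, pseudocounts, filters, variance models, a replicate block and each library left out. Figures were drawn with matplotlib 3.10.9.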

Additional observations from a re-analysis of the deposited data

How the results depend on the processing

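Against control, Lyve1, Vcam1 and Kdr kept direction and call under all 18 alternatives. Without rescaling, 974 genes were higher and 2107 lower in APAP (31.6% higher, against 50.6%), and 714 higher and 1792 lower in dmPGE2+APAP (28.5%, against 52.1%); after centring on pan-endothelial genes, 1353 were higher and 612 lower in APAP (68.9%) and 755 and 610 in dmPGE2+APAP (55.3%). With only the compared groups in the fit, 2 genes were lower in dmPGE2+APAP than in APAP. At a filter of 0.5 FPKM, 0 member transcripts of the lncRNA table were called in dmPGE2+APAP. Stab1-213 did not reach that filter in any library and so could not be tested there. The cause of these shifts was not tested.

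Signs that turned belonged to differences that did not pass the test. Without rescaling they were Klf4 between the treated groups (-0.00374), and Icam1 (-0.0358) and Selp (-0.0704) in dmPGE2+APAP against control. With quantile normalization they were Wnt5b between the treated groups (0.00619) and Selp in dmPGE2+APAP (-0.215). With the median-ratio scale they were Clec4g (0.00148) and Wnt2 (0.00486) in APAP. Centred on pan-endothelial genes they were Clec4g (0.0826), Icam1 (0.0454) and Wnt2 (0.0812) in APAP, and Pecam1 (-0.0125), Clec14a (-0.0111), Klf4 (-0.0680) and Hyal1 (-0.00296) between the treated groups.

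Leaving out each library in turn gave 861 to 1191 genes higher and 698 to 1170 lower in APAP, 595 to 960 higher and 437 to 830 lower in dmPGE2+APAP, and 0 to 11 higher and 0 to 23 lower between the treated groups, the highest without dmPGE2+APAP replicate 1. Members called were 2 to 3 higher and 1 lower in APAP and in dmPGE2+APAP, and 0 between the treated groups. Log2 differences whose sign turned in these fits ranged, in APAP, from -0.156 to 0.191 for Clec4g, -0.172 to 0.132 for Icam1, -0.117 to 0.142 for Wnt2 and -0.00165 to 0.269 for Cdh5. In dmPGE2+APAP they ranged from -0.242 to 0.0844 for Mmrn1, -0.252 to 0.192 for Selp, -0.0247 to 0.279 for Icam1, -0.222 to 0.961 for Cxcl1, -0.182 to 0.0657 for Clec4g and -0.0538 to 0.231 for Csf3r. Between the treated groups they ranged from -0.229 to 0.117 for Clec4g, -0.118 to 0.423 for Sox18, -0.151 to 0.0509 for Wnt5b, -0.0176 to 0.287 for Ecm1, -0.254 to 0.0405 for Gpr182, -0.295 to 0.185 for Kit, -0.0408 to 0.0121 for Fzd4, -0.0563 to 0.169 for Pecam1, -0.193 to 0.165 for Klf4, -0.290 to 0.0227 for Wnt4 and -0.0503 to 0.489 for Cldn5.

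Same-numbered replicates did not deviate together: 0 of 9 correlations exceeded 0.1 (range -0.117 to 0.072), and 2 of 9 libraries correlated best with their own number. With the replicate block, 1076 genes were higher and 962 lower in APAP, 812 and 671 in dmPGE2+APAP, and 0 between the treated groups, and the Stab1 call in APAP was lost (adjusted p = 0.0515, limma).

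Read depth is unknown, and the 3 libraries per group limit the precision. The filter of 1 FPKM removed Selp, which then could not be tested.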
